A study of Caenorhabditis elegans with 2 samples.

Results

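The genes cebp-1, zip-2, zip-5, atf-7, skn-1 and crh-1 encode 6 of the basic leucine zipper (bZIP) transcription factors of Caenorhabditis elegans, the family to which the tagged protein JUN-1 itself belongs. These 6 of 19973 protein-coding genes on the nuclear chromosomes were chosen by measured values, namely their peaks in these same lists, so every count and rank at them is a description and carries no test. For each gene, all peak summits from 1000 bp upstream of a transcript start through the gene body were collected. Chromatin of whole L4 larvae, of both sexes, had been immunoprecipitated for the tagged protein and sequenced as 2 biological replicates. The worms were strain OP234, which has the unc-119(ed3) allele and the integrated transgene wgIs234 with eGFP-tagged jun-1. There was 1 group and no second condition, and the control that the labels name was not analysed here. Because whole animals were used, a peak cannot be placed in any tissue, and a strong site in few cells and a weak site in many cannot be told apart.

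The proteins of this family bind DNA as dimers through a basic region, and partners within the family can be exchanged. CEBP-1, of the C/EBP class, acts downstream of the kinase DLK-1 in axon regeneration. ZIP-2 drives the transcriptional response to blocked translation during infection. ATF-7 works under the p38 kinase PMK-1 in innate immunity, and SKN-1, the relative of mammalian Nrf factors, controls detoxification and oxidative stress genes. CRH-1 is the worm CREB. JUN and FOS proteins bind the AP-1 site, while CREB and ATF proteins favour the CRE TGACGTCA. The AP-1 site was searched for here as TGANTCA, with any base in the middle.

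Of the 6 genes, 5 held at least 1 peak that passed the authors' reproducibility threshold, and atf-7 held none. Such a peak lay in the same kind of region of 4.02% of all protein-coding genes. Both zip-2 and zip-5 held 2 such peaks, as did 0.22% of all genes, which gave 7 reproducible summits in all. Within promoter windows, which reached 1000 bp before and 200 bp past each start, 4 of the 6 genes held a reproducible summit, against 3.35% of all genes. The list called jointly from both replicates held 13085 regions before the threshold, of which 899 passed, and it placed a summit at all 6 genes, against 36.6% of all genes. Both replicate lists also placed a summit at all 6, against 36.0%. Nothing is read from these shares, since the same lists chose the genes. The genes are also long, with a median span of 6351 bp against 2027 bp for all protein-coding genes. Among genes at least that long, 7.61% held a reproducible summit, as did 2 of the 3 members of that length (skn-1 and crh-1). Read depth was unknown, and the signal per peak is the authors' own value, whose scale no label states.

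The sequences under the 7 reproducible summits, and under the strongest joint-list summit of atf-7, are given first because the positions of recognition sites and of transcript starts recur in what follows. Each is 101 bases of the ce11 genome, written 5′ to 3′ on the strand of the gene. Capitals mark, on either strand, the AP-1 site, the CRE core TGACG, the C/EBP site TTGCNNAA, the SKN-1 cores GTCAT and ATCAT, and the repeat GAGAGA. The summit is the middle base, except at crh-1, where the stretch ends just before the transcript start and the summit would be its base 118.
cebp-1, chrX:1454559-1454659, minus strand: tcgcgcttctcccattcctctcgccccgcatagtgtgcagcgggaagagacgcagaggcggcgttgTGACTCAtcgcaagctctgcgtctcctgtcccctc
zip-2, stronger summit, chrIII:833841-833941, plus strand: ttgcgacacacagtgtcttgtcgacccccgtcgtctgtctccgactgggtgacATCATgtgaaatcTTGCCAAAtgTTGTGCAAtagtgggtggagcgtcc
zip-2, weaker summit, chrIII:833063-833163, plus strand: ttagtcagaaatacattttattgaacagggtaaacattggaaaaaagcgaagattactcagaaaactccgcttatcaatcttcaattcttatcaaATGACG
zip-5, stronger summit, chrV:13268105-13268205, plus strand: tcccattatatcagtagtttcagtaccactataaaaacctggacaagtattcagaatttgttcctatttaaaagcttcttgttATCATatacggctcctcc
zip-5, weaker summit, chrV:13269484-13269584, plus strand: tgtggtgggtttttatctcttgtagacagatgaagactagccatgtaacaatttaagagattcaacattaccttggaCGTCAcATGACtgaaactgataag
skn-1, chrIV:5657213-5657313, minus strand: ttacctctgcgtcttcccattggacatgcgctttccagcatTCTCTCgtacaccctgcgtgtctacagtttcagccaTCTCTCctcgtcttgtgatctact
crh-1, chrIII:11689411-11689511, plus strand: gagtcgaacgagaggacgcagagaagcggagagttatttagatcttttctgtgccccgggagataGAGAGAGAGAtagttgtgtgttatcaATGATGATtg
atf-7, chrIII:4494477-4494577, minus strand: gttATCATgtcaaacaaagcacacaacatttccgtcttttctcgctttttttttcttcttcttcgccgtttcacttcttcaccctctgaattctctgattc

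The strongest site of the group lay upstream of cebp-1 (WBGene00016997, chromosome X from 1452695 to 1453868, minus strand). Its joint-list signal was 206 at rank 36 of 13085, and the replicate lists gave 81.3 (rank 56) and 125 (rank 25). The summit, at X 1454609, was 741 bp upstream of the only annotated start, in intergenic sequence, and in no region of another protein-coding gene. The next start upstream, that of D1005.2, was 4413 bp away. The called region was 114 bp wide, while 99.6% of joint-list regions were 376 bp wide. An AP-1 site, TGACTCA on the gene's strand, lay near the summit, its lowest coordinate 22 bp below it, and a C/EBP site, TTGCGAAA on the plus strand, lay 89 bp below it. The other 2 joint-list summits at cebp-1 were weak, at signals of 22.9 and 22.3, and both were matched within 100 bp in replicate 2 alone.

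At zip-2 (WBGene00019327, chromosome III from 832982 to 835814, plus strand), both reproducible summits lay in an intron of the transcript with the most upstream start, K02F3.4.3. The stronger, at III 833891, had a joint-list signal of 110 (rank 129), with 55.6 in replicate 1 and 52.1 in replicate 2. It was 197 bp upstream of the start of the shorter transcript K02F3.4.1. In its sequence 2 matches to the C/EBP site, TTGCCAAA and (on the other strand) TTGTGCAA, begin 16 bp and 26 bp past the summit. The weaker, at III 833113, had a joint-list signal of 65.3 (rank 491), with 27.75 and 33.5 in the replicates. It lay 131 bp downstream of the start of K02F3.4.3, inside the long non-coding RNA gene linc-37. This position is also within 1000 bp upstream of ceeh-1, which encodes an epoxide hydrolase and is transcribed away from zip-2 (836 bp), so the lists do not resolve which gene the peak belongs to. A snoRNA gene, K02F3.15, lay between the summits, 282 bp from the stronger and 322 bp from the weaker.

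**Figure D1:**
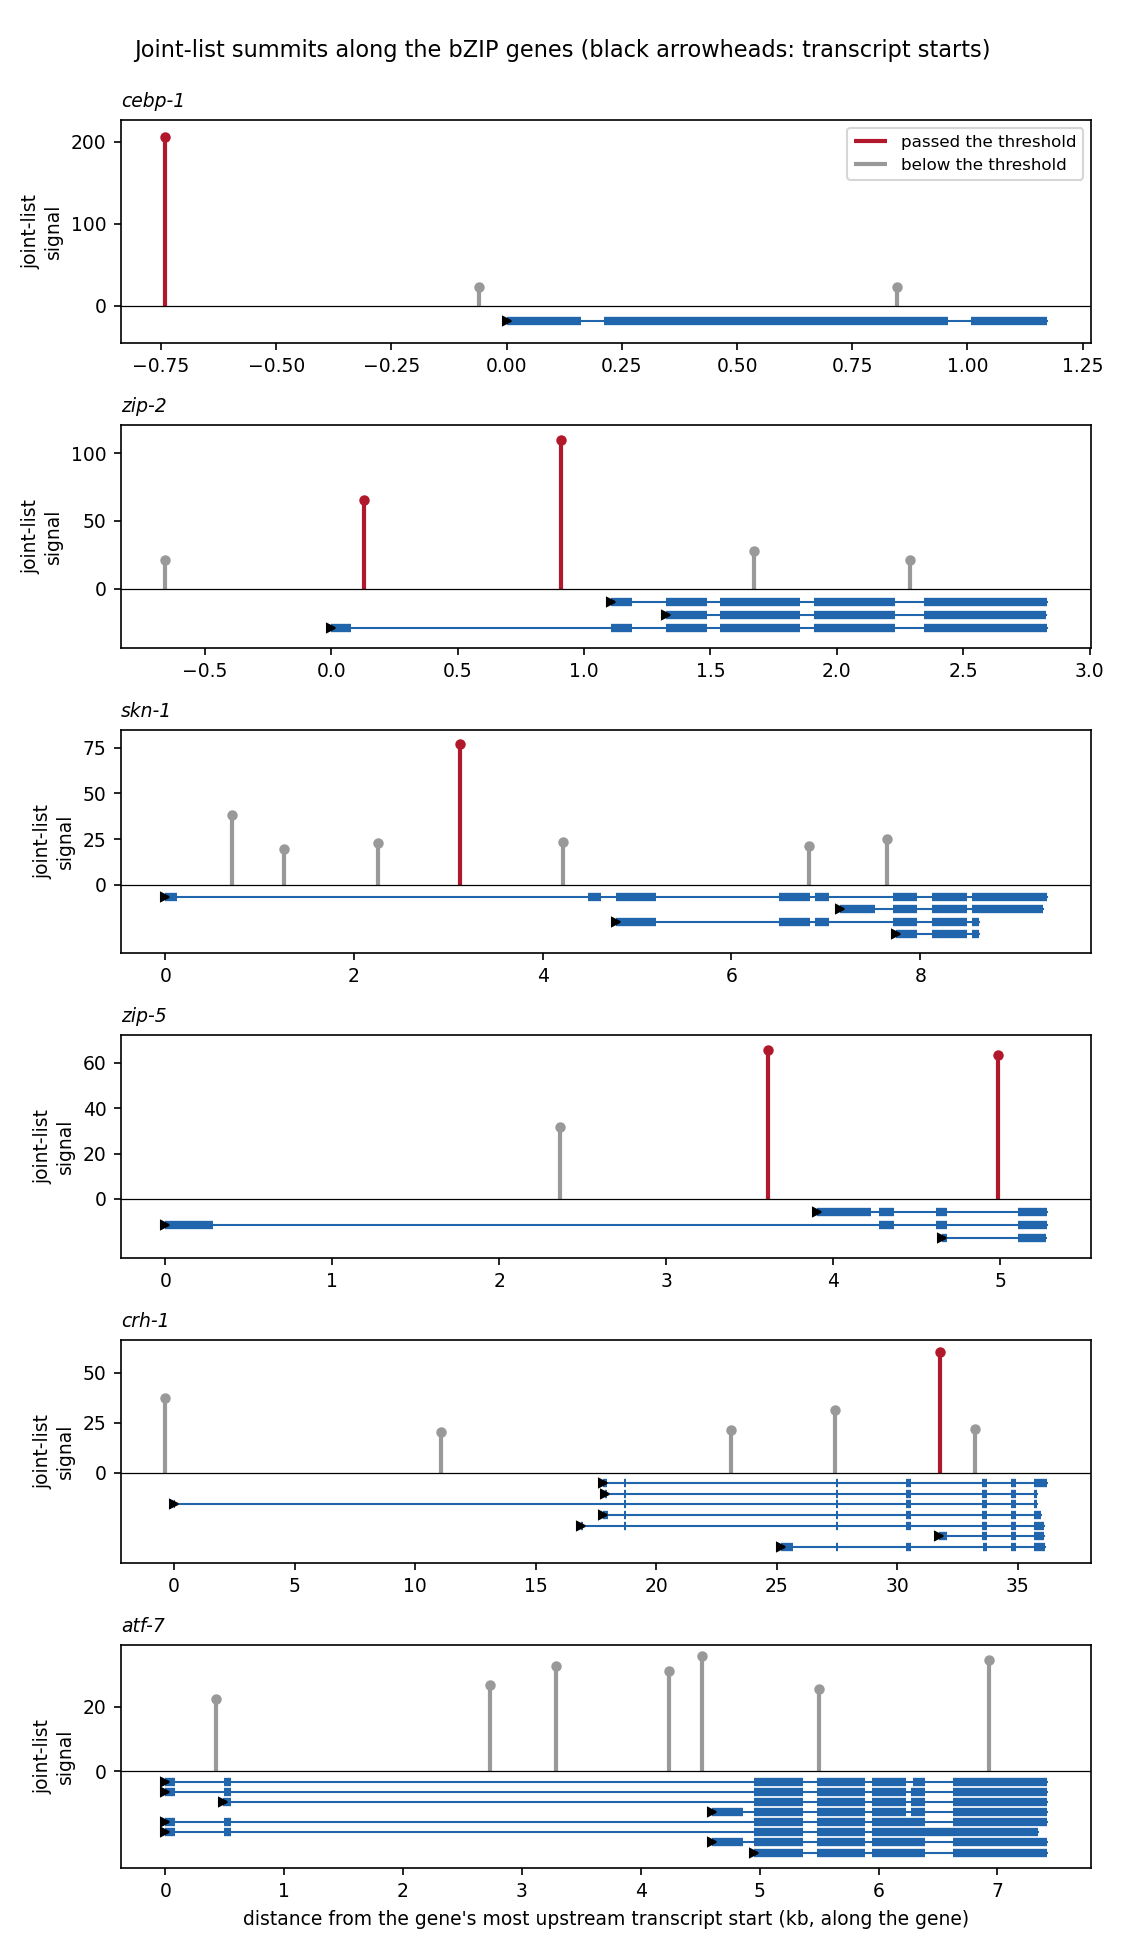
Signal of each joint-list summit (vertical axis, the authors' value) against its distance in kb from the most upstream transcript start, for the 6 genes in order of strongest signal. Red summits passed the reproducibility threshold and grey ones did not, blue bars are exons of each annotated transcript and black arrowheads are transcript starts. At zip-2, zip-5 and crh-1 a red summit stands beside a start inside the gene, and atf-7 has grey summits only.

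SKN-1's gene (WBGene00004804, chromosome IV from 5651039 to 5660384, minus strand) held 1 reproducible summit, in an intron of the transcript T19E7.2a. At IV 5657263 its joint-list signal was 77.1 (rank 338), and the replicates gave 37.0 and 38.3 at summits within 3 bp of it. It lay 1658 bp upstream of the start of T19E7.2c, beyond the promoter window. The capitals in its sequence are copies of the GA repeat. The second site, at IV 5659677, also intronic in T19E7.2a, had a signal of 38.1 (rank 1635), with 17.25 and 20.2 in the replicates, and was the strongest summit of the group outside the threshold. The promoter windows of skn-1 held only weak summits, of which the strongest had a signal of 25.0, at 101 bp upstream of the start of T19E7.2d, matched in replicate 1 alone.

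At zip-5 (WBGene00007932, chromosome V from 13264545 to 13269827, plus strand), 2 reproducible summits of nearly equal strength lay in introns. The summit at V 13268155 had a joint-list signal of 65.9 (rank 478), with 33.98 and 31.6 in the replicates, 295 bp upstream of the start of C34D1.5a. The summit at V 13269534 had 63.5 (rank 523), with 32.45 and 34.4, 338 bp downstream of the start of C34D1.5c and in an intron of all 3 transcripts. The first was the stronger in replicate 1 and the second in replicate 2, so their order was not resolved. No reproducible summit lay near the most upstream start of zip-5. The CREB homologue crh-1 (WBGene00000793, chromosome III from 11657767 to 11693981, plus strand) spans 36215 bp, longer than 99.9% of protein-coding genes. Its reproducible summit, at III 11689528, had a joint-list signal of 60.6 (rank 569), with 29.2 and 29.7 in the replicates. It lay 16 bp inside the start of the short transcript Y41C4A.4f, in its 5′ untranslated region and in an intron of the other 6 transcripts. A full CRE, TGACGTCA, began 62 bp past this summit, and the GA repeat in capitals lies upstream of the start.

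The most upstream start of crh-1 carried a site that differed between the replicates. The summit at III 11657402, 365 bp upstream of the start of Y41C4A.4c, had a joint-list signal of 37.4 (rank 1700). Replicate 1 gave it 26.95 (rank 859) and replicate 2 gave 14.1 (rank 4773). A second full CRE began 82 bp from this summit. Another full CRE lay 93 bp from the weak cebp-1 summit at X 1453927, which is 59 bp upstream of the cebp-1 start.

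For atf-7 (WBGene00000223, chromosome III from 4491627 to 4499045, minus strand), each replicate had its strongest summit at a different place. Replicate 1 had its strongest at III 4492116, in the 3′ untranslated region, with a signal of 26.8 (rank 872), and the nearest summit in replicate 2, 90 bp away, had 10.8 (rank 9822). Replicate 2 had its strongest at III 4494532, with a signal of 28.8 (rank 782), and the nearest summit in replicate 1 was 335 bp away with 16.8 (rank 2869). The 2 positions were 2416 bp apart. The joint list kept both, at signals of 34.2 (rank 2105) and 35.5 (rank 1940), and 5 more down to 22.4. The summit at III 4494527 lay 77 bp upstream of the internal start of C07G2.2c, in an intron of the longer transcripts. Among the 899 strongest peaks of each replicate list, all 6 genes, atf-7 included, held a summit in both, against 2.58% of all genes.

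**Figure D2:**
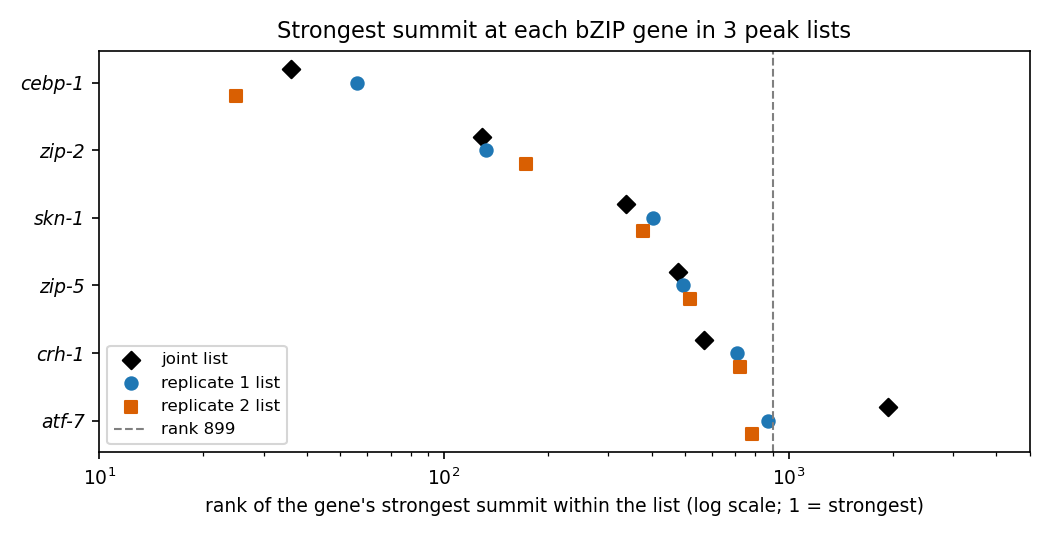
Rank of the strongest summit at each gene (horizontal axis, log scale) in the joint list and in the list of each replicate, with the dashed line at rank 899, the length of the reproducible list. The 6 genes stand in the same order in all 3 lists, and atf-7 alone lies past the line in the joint list (rank 1940) while inside it in replicate 1 (872) and replicate 2 (782).

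By strongest summit the order was cebp-1, zip-2, skn-1, zip-5, crh-1 and atf-7 in the joint list and in each replicate list. For neighbours in this order, the pair of replicate signals of one gene did not overlap that of the next, although crh-1 (29.2 and 29.7) and atf-7 (26.8 and 28.8) differed by little. At zip-5 and atf-7 the pair came from different summits, 1319 bp and 2416 bp apart, so it does not give the replicate spread of 1 site. With the weaker summits included, the order is less clear, since the range of the second zip-2 summit (27.75 and 33.5) held both values of crh-1 and the lower values of both zip-5 summits (31.6 and 32.45). All 7 reproducible summits had a match within 100 bp in both replicate lists, as did 846 of all 899 reproducible peaks. At the 7 summits the ratio of replicate 2 to replicate 1 signal ran from 0.93 at zip-5 to 1.54 at cebp-1. Over all 846 reproducible peaks with a match in both, the median ratio was 1.00, with 5th and 95th percentiles of 0.565 and 2.00. Of the 24 joint-list summits below the threshold, 8 were matched in both replicates and 16 in 1 replicate. The share over all joint-list peaks below the threshold was not computed, so nothing is read from these counts. The last peak inside the threshold had a signal of 49.61 and the first outside 49.59. No member summit lay near that edge, with 60.6 at crh-1 as the lowest inside and 38.1 at skn-1 as the highest outside.

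**Figure D3:**
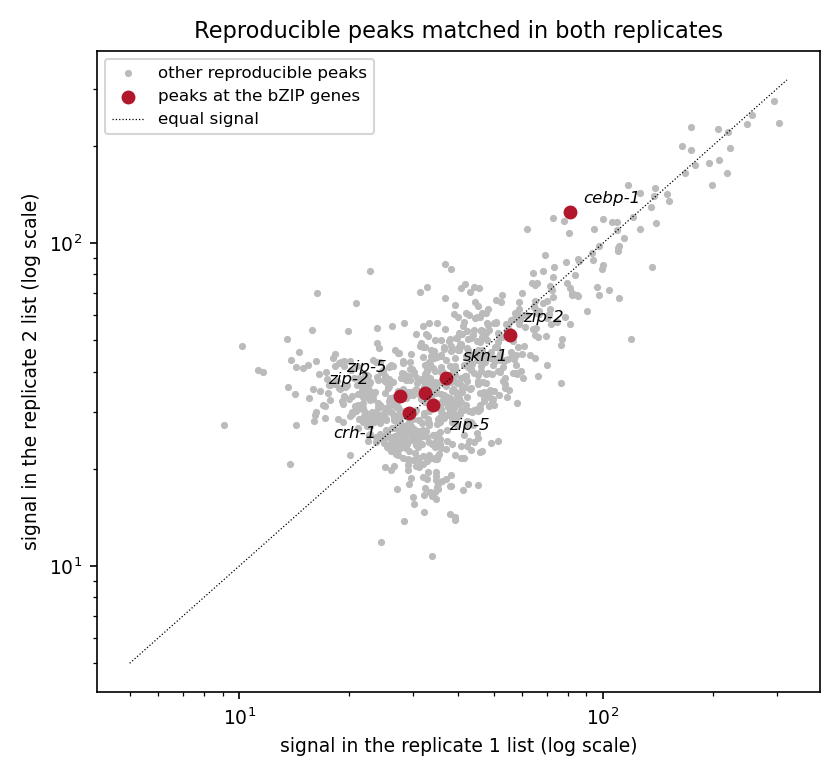
Signal in replicate 2 against signal in replicate 1 (both log scales) for the 846 reproducible peaks matched in both lists, with the 7 at the bZIP genes in red and the dotted line at equal signal. The cebp-1 peak lies above the line (81.3 and 125) and the other 6 lie near it.

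Reproducible summits at these genes mostly stood nearest to a transcript start inside the gene. Of the 5 genes with a start more than 100 bp past the most upstream one, 4 held reproducible summits, 6 in all, and for 5 of the 6 (83.3%) the nearest start was such an internal one. The exception was the weaker summit of zip-2. The nearest start was taken at any distance. For skn-1 it was 1658 bp from the summit, while the other internal cases lay 16 bp to 338 bp from theirs. Over all protein-coding genes with internal starts the share was 134 of 320 (41.9%). In the joint list before the threshold it was 22 of 28 (78.6%) at these genes and 67.5% over all. The 5 genes have 3 to 7 different starts each, were chosen on these peaks, and were not tested against other genes.

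Windows of 201 bp at the 31 joint-list summits held bZIP recognition sequences in part of the cases. The AP-1 site was in 4 of them (12.9%), against 8.68% of windows at all reproducible summits and 8.08% at all joint-list summits. The 4 were at cebp-1, at the stronger zip-5 summit, at atf-7 (III 4494527) and at skn-1 (IV 5653559). On the plus strand they read TGAGTCA at cebp-1, TGATTCA at zip-5 and skn-1, and TGAATCA at atf-7. A middle C or G was thus found at cebp-1 alone. The CRE was in 3 (9.68%), against 1.45% and 1.40%, the C/EBP site in 8 (25.8%), against 17.4% and 19.2%, and the CRE core in 11 (35.5%), against 31.9% and 25.2%. The SKN-1 core ATCAT was in 17 (54.8%), against 33.7% and 41.5%, and GTCAT in 13 (41.9%), against 28.9% and 29.7%. The GA repeat was in 7 (22.6%), against 44.0% of reproducible and 21.0% of joint-list windows. The GATA site TGATAA was in 11 (35.5%), against 18.4% and 21.2%, and the CCAAT box in 13 (41.9%), against 29.0% and 35.3%. The unfolded protein response element TGACGTG was in 2 (6.45%), against 4.34% and 2.58%. The E-box CACGTG was in 2 (6.45%), against 8.45% and 5.19%. Shares above those of both lists were thus not limited to bZIP sequences. Both strands were searched, every CRE also counts as a CRE core, and a match is a description of the letters, not a binding site. Of the 31 windows, 24 are at peaks below the threshold, and the GC content of all 31 (39.6%) was nearer to that of the whole joint list (38.7%) than to that of the reproducible peaks (45.0%).

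In the rest of the family, 5 of 21 other bZIP genes (23.8%) held a reproducible summit, against 4.02% of all genes, and 15 (71.4%) held a joint-list summit, against 36.6%. The strongest were at xbp-1, the factor of the endoplasmic reticulum stress response (signal 154, replicates 79.4 and 75.5), and at jun-1 itself (90.5). The jun-1 peak had no match in replicate 1 and 57.6 in replicate 2, and the strain carries a further, tagged copy of this gene. Its summit also lay in the region of C16D2.1. Then came atf-6 (58.2), crh-2 (54.3) and zip-3 (51.4), the last named because it completes the count. At cebp-2, which encodes another C/EBP-class protein and was picked after its values were seen, the strongest summit had a signal of 29.2 and was matched in replicate 2 alone. The cebp-2 summit also lay in the region of lpd-2.

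**Figure D4:**
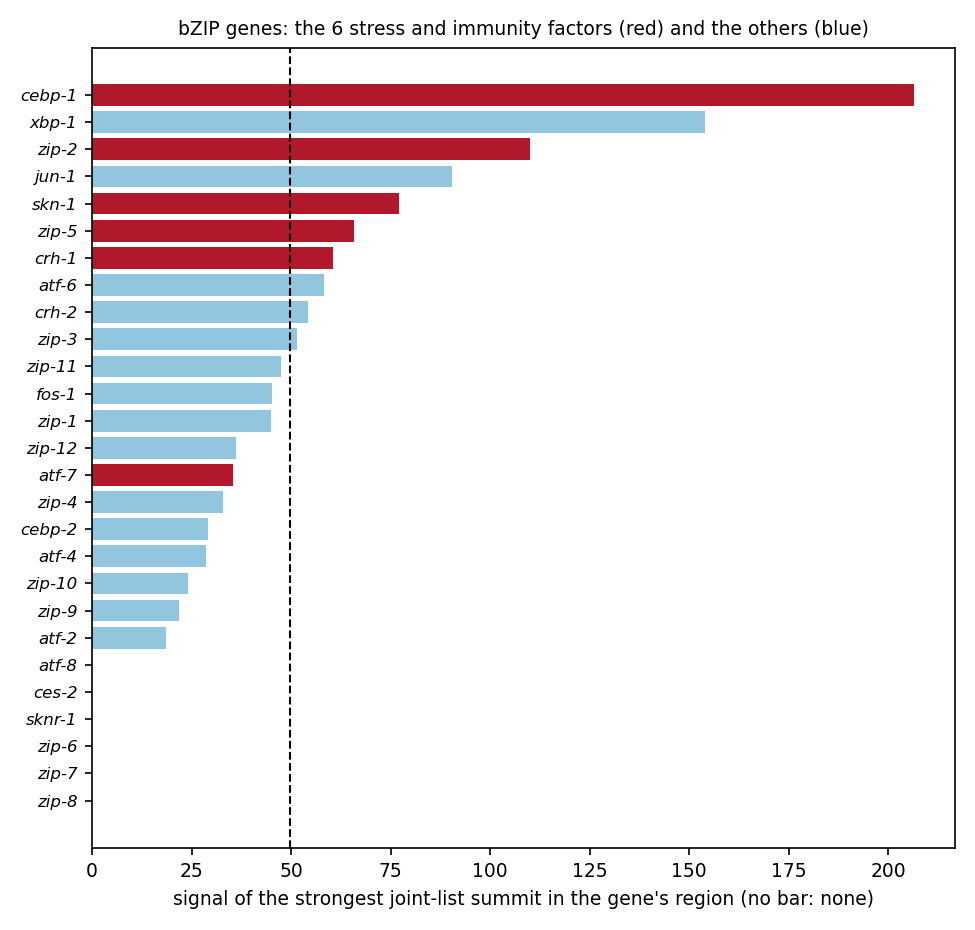
Signal of the strongest joint-list summit (horizontal axis, the authors' value) in the region of each of 27 bZIP genes. The 6 genes described here are in red and 21 others in blue, among them xbp-1, also a stress factor. The dashed line is at the weakest reproducible peak (49.6). The cebp-1 bar is the longest at 206, followed by xbp-1 at 154 and zip-2 at 110, and 6 genes have no bar.

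Genes that regulate these factors were read from lists written with earlier results of these data known. Among 11 genes around the p38 pathway, 10 (90.9%) held a joint-list summit, against 36.6% of all genes. A reproducible summit was held by 2 (18.2%), against 4.02% of all genes and 7.61% of genes of at least 6351 bp. They were vhp-1, a phosphatase of stress kinases (signal 167, replicates 85.7 and 88.0), and nipi-3, the Tribbles kinase that holds cebp-1 expression down (signal 113, replicates 43.1 and 70.7). The next were tir-1 (37.4, matched in replicate 2 alone), the adaptor at the head of the pathway, and the calcineurin gene tax-6 (33.4), both below the threshold, and pmk-1 had no summit. Of 12 genes of the DLK-1 and KGB-1 kinase pathways 9 (75.0%) held a joint-list summit, against 36.6% of all genes. None held a reproducible one, which for 12 genes is near the background of 4.02%. The strongest was at dlk-1 (46.0), matched in replicate 1 alone, and then came mak-2 (42.9), pmk-3 (37.7) and mlk-1 (34.7), matched in both.

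Among 15 regulators of SKN-1, 2 (13.3%) held a reproducible summit, against 4.02% of all genes, and 11 (73.3%) a joint-list summit, against 36.6%. They were wdr-23, whose product targets SKN-1 for degradation (signal 112, replicates 70.2 and 41.9), and ogt-1, the O-GlcNAc transferase (80.4, replicates 40.8 and 38.2). The next, mdt-15 (31.4), a Mediator subunit, and mxl-3 (28.8) were below the threshold. The mdt-15 summit also lay in the region of R12B2.13. Among 13 genes of cAMP, calcium and energy signalling to CREB, 5 (38.5%) held a reproducible summit, against 4.02% of all genes and 7.61% of genes of at least 6351 bp, and all 13 held a joint-list summit, against 36.6%. The strongest was at cbp-1, the histone acetyltransferase that CREB recruits (signal 202, replicates 110 and 94.4). Then came the phosphoserine-binding protein gene ftt-2 (89.1), the stimulatory G protein gene gsa-1 (56.7) and the AMP-activated kinase gene aak-2 (54.2). The fifth was par-5 (50.4), named to complete the count, and its summit also lay in the region of M117.3.

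Of 26 immune and oxidative stress effector genes, 10 (38.5%) held a joint-list summit, against 36.6% of all genes. None held a reproducible one, and with 4.02% of all genes holding one, a count of 0 among 26 is near the background. The strongest were irg-2 (44.0), a gene induced by infection, the peroxiredoxin gene prdx-2 (36.4), clec-60 (25.4) and lys-2 (24.9). Of these, prdx-2 alone was matched in both replicates. The irg-2 summit also lay in the region of C49G7.10, and the clec-60 summit in that of ZK666.11. The genes clec-60 and lys-2 encode a lectin-like protein and a lysozyme. The glutathione enzyme genes gst-4 and gcs-1, much used as reporters of SKN-1, and irg-1, the reporter of ZIP-2, had no joint-list summit. The median span was 1749 bp for the effector genes, 7243 bp for the p38 list, 4636 bp for the DLK-1 and KGB-1 list, 3506 bp for the SKN-1 list and 7433 bp for the CREB list. The part of gene length in the counts of these lists was not tested.

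Among protein-coding genes whose strongest joint-list summit was matched in both replicate lists, those nearest to each member's strongest summit in replicate signal (2 replicates, log2 scale) were taken. Peaks in no gene's region, or not the strongest of their gene, were not considered. For cebp-1 it was the peak shared by wip-1 and larp-1 (78.0 and 117, distance 0.111). For zip-2 they were rpl-11.2 (54.5 and 53.8) and eat-16 (56.4 and 49.8), and for skn-1 imb-3 (37.2 and 37.7) and R04E5.9 (37.3 and 37.5). For zip-5 they were unc-70 (34.2 and 32.4) and fkh-7 (33.4 and 30.9), and for crh-1 lin-42 (29.3 and 29.97) and ife-2 (28.8 and 29.6). For atf-7 no such gene is given, since its strongest joint-list summit had no match in replicate 1.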

How the data were processed

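Peak lists of an eGFP-tagged jun-1 ChIP-seq experiment in whole L4 larvae were used, 1 per biological replicate, 1 for both replicates jointly, and the part of the joint list that passed the authors' threshold of reproducibility (IDR). The labels name a possible control. Aligner and peak caller: not given in the sources used here. As deposited, the signal of a peak (column 7) is the peak caller's value, and the deposited -log10 q-value (column 9) was read and set no threshold. The lists carry no read counts, so depth is unknown, and 99.7% of joint-list summits are the middle of the region (within 1 bp), which limits their precision.

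Ranks, distances and counts were computed here with Python 3.11.15, numpy 2.4.6, pandas 2.3.3 and matplotlib 3.10.9 on ce11, with Ensembl release 115 annotation of WBcel235 and sequence from RefSeq's copy of it. Of 99 list names, 98 matched a protein-coding gene. Replicate summits were matched within 100 bp. No test was made, because the members, the lists and the motifs were chosen with earlier results of these data known. The labels do not say whether cultures were separate. Named genes were the members, genes sharing their peaks, the 2 nearest in replicate signal and up to 4 strongest of each list. Alternatives changed the upstream distance, the region, the assignment, the threshold, the replicate, the matching distance and the motif window. The code was checked on planted positions.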

Additional observations from a re-analysis of the deposited data

How the results depend on the processing

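No paired analysis was possible because the series holds 1 group. Of 78 alternative values, 64 stayed within the replicate spread or within 1.5 times of the reported count, and 14 moved further. The number of members with a reproducible summit was 5 in the main setting and ranged from 6 to 6 with either replicate left out, where the 899 strongest peaks of the remaining list took its place and atf-7 joined. Without 1 replicate the share of all genes was 3.85% to 3.97% and 5 to 6 other bZIP genes were counted. Among the stronger 1 in 2 of the reproducible peaks, 3 members (cebp-1, zip-2 and skn-1), 2.13% of all genes and 2 other bZIP genes remained. With promoter windows only, 2 other bZIP genes were counted in place of 5, and the strongest signal at skn-1 fell to 25.0, since its reproducible summit lies outside those windows. With 500 bp upstream the strongest signal at cebp-1 became 22.9 and 4 members were counted, since its peak lies 741 bp upstream. A threshold at the lowest signal of the ce10 list (46.4), chosen after seeing the data, left 5 members, with 4.71% of all genes and 6 other bZIP genes. Motif counts moved with the window: with 50 bp to each side the AP-1 site was in 1 of the 31 windows and the CRE in 0, and with 150 bp in 7 and 4. Peak signals without read counts allow no interval.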

Other observations

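The density of joint-list summits differed among these genes and was lower at longer ones, except that zip-5 was below the longer atf-7 and skn-1. Per kb of region there were 1.38 at cebp-1 and 1.30 at zip-2, 0.831 at atf-7, 0.677 at skn-1, 0.477 at zip-5 and 0.161 at crh-1, against 0.142 over the regions of all protein-coding genes and a median of 0.337 over genes with a joint-list summit. The value at crh-1, whose region spans 37215 bp, was below that median. The 7 summits at atf-7 gave none past the threshold, while 3 at cebp-1 included 1 at rank 36.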
